A study of Arabidopsis thaliana with 6 samples.

Results

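The trehalose-6-phosphate synthase family of Arabidopsis thaliana was followed through 8 of its genes, TPS1 and TPS5 to TPS11, picked by gene identifier from 32833 identifiers counted in 6 libraries of 3′ RNA-seq from whole seedlings. The wild type was Col-0, a widely used laboratory accession, with 3 libraries, and the line amiRNA-VQ1,10 gave the other 3. That line carries an artificial microRNA, a designed small RNA, named for VQ1 and VQ10, 2 genes of the plant VQ family, whose proteins interact with WRKY transcription factors. The labels give neither the promoter that drives the artificial microRNA nor the number of independent lines. Both genotypes grew for 14 days in normoxia (21% O2) on medium with 1% sucrose, in days of 16 h of light (150 µmol photons m-2 s-1) and 8 h of dark, and were harvested 4 h after lights on.

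Trehalose-6-phosphate is made from UDP-glucose and glucose-6-phosphate and serves plants as a signal of sucrose status. It inhibits SnRK1, a protein kinase that is active when sugar is short and that reprogrammes transcription towards saving carbon. TPS1 is the main active synthase, a class I enzyme without which embryos do not mature. TPS5 to TPS11 are class II proteins, in which a synthase-like domain is joined to a phosphatase-like domain and for which a synthase role has not been established. TPS5, TPS6 and TPS7 are known to bind 14-3-3 proteins after phosphorylation, whereas transcripts of TPS8 to TPS11 are known to accumulate when carbon is short.

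The libraries held 926209 to 1329817 counts over genes, and a member had between 1 and 183 counts in a library. Counts of VQ1 were 5, 1 and 2 in wild type and 0 in each amiRNA-VQ1,10 library, and VQ10 had 1 count in all. Replicates of a genotype differed by more than counting noise (chi-square per degree of freedom 1.27 to 1.66). The leaf genes RBCS1A, RBCS3B, CA1 and CAB1 summed to 16400 to 18070 CPM (counts per 1000000 counts of tested genes, TMM-scaled) and the root genes PYK10, NRT2.1, CASP1 and PRP3 to 1028 to 1496 CPM. The seed genes CRA1 and OLEO1 were at 0 in all libraries but wild type replicate 1 (4.35 CPM).

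TPS1 (AT1G78580) is encoded on chromosome 1 with 17 coding exons and 942 residues, whereas each class II gene has 3 coding exons and 851 to 867 residues (RefSeq annotation of TAIR10.1). TPS5 (AT4G17770) lies on chromosome 4 and TPS11 (AT2G18700) on chromosome 2. TPS6 (AT1G68020), TPS7 (AT1G06410), TPS8 (AT1G70290), TPS9 (AT1G23870) and TPS10 (AT1G60140) lie on chromosome 1 like TPS1. In coding sequence TPS1 matched the class II genes at 54.2% to 56.7% of aligned bases. Class II pairs matched at 63.2% to 72.0%, apart from TPS8 and TPS9, which matched at 81.0%. Because reads come from transcript ends, the last 500 bases of each transcript were also compared. The longest identical run there was 32 bases between TPS8 and TPS9, and 8 to 18 bases in the other 27 of 28 pairs. That run is shown in capitals within the coding strand, with 10 bases on each side, at coding bases 2331 to 2382 of TPS8 and 2346 to 2397 of TPS9, since reads within it could belong to either gene.
TPS8: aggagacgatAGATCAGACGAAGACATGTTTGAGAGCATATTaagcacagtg
TPS9: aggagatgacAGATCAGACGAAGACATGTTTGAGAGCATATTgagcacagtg

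TPS1, TPS5 and TPS6 overlap a gene on the opposite strand at their 3′ end, and whether counting used strand is not given in the sources used here. The partner of TPS1 is RHM1, a rhamnose synthase, with an overlap of 99 bases and 125 to 186 CPM, well above TPS1 itself. TPS1 also overlaps the noncoding AT1G09827 away from its 3′ end, which stood at 0. The partners of TPS5 and TPS6 stood at 0 and at 0.770 to 3.77 CPM. Reads in more than 1 gene stayed out of the counts. If strand was not used, reads within the 3′ overlaps of TPS1, TPS5 and TPS6 (99, 128 and 207 bases) would be missing. The levels, shares and order given below for these members may therefore be too low. Neither such a loss nor the part of RHM1 in the counts of TPS1 was tested.

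The family was dominated by TPS7, with 45.5% of the summed counts of the 8 genes as a mean over the 6 libraries, followed by TPS5 with 22.1% and TPS11 with 11.4%. The active synthase TPS1 made up 3.60%. By mean CPM the order was TPS7 (127), TPS5 (61.3), TPS11 (32.1), TPS10 (18.7), TPS6 (16.6), TPS8 (10.6), TPS1 (9.99) and TPS9 (2.87). Because 3′ RNA-seq reads each transcript at its end, CPM was not divided by length, and on the scale of CPM per kb of coding sequence the order was the same. TPS7 lay above TPS5, and TPS5 above TPS11, with ranges that did not overlap over the 6 libraries. TPS11 exceeded TPS10 in 6 of 6 libraries although their ranges overlapped. Further down, the ranges of neighbours also overlapped: TPS10 exceeded TPS6 in 3 of 6 libraries, TPS6 exceeded TPS8 in 5, TPS8 exceeded TPS1 in 3 and TPS1 exceeded TPS9 in 5. Differences between neighbours were not tested. TPS9 had 18 counts in all. The remaining class I genes TPS2, TPS3 and TPS4 had 0 of 6838250 counts, which allows each at most 0.439 per 1000000 of all gene counts.

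**Figure D1:**
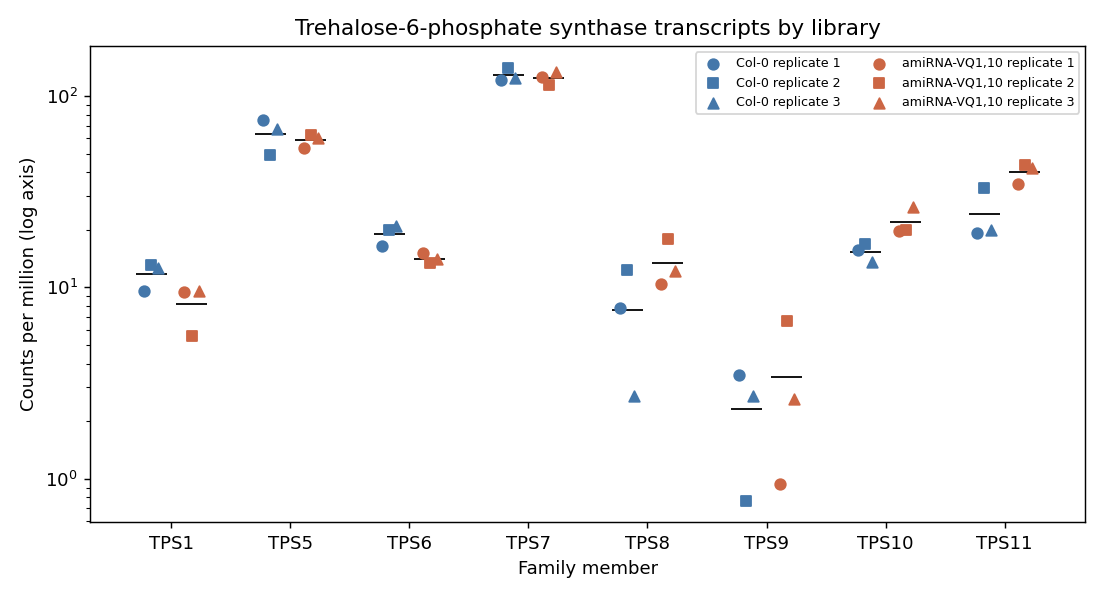
CPM of each member (log axis) in the 3 Col-0 libraries (blue) and the 3 amiRNA-VQ1,10 libraries (orange), with replicates as separate symbols and genotype means as black lines. TPS7 is highest in every library at 114 to 141 CPM, and the amiRNA-VQ1,10 points of TPS10 and TPS11 lie above those of Col-0.

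The comparison asks how transcript levels differ between amiRNA-VQ1,10 and wild type in normoxia. No member passed the test between genotypes: 0 of 7 tested members had an adjusted p under 0.05 (edgeR quasi-likelihood test, Benjamini-Hochberg over 12701 genes), where 0.102% of all tested genes did. DESeq2 called 0 of 8 members (0.0264% of all genes) and limma-voom 0 of 7 (0.0630%). At an unadjusted p under 0.05 there were 2 members in edgeR (6.02% of all tested genes), 1 in DESeq2 (0.998%) and 3 in limma-voom (5.98%). Of the 7, 3 were above 0 and 4 below, with a median log2 fold change of -0.05, beside 0.00364 over all tested genes. TPS9 had too few counts for the filter, and TPS8 reached 10 counts in 3 amiRNA-VQ1,10 libraries but in only 1 of wild type. No count over the members is therefore read as support for a shift.

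Among the genes of the active enzyme and the 14-3-3-binding class II proteins, TPS1 had 9.58, 13.1 and 12.7 CPM in wild type and 9.43, 5.57 and 9.63 CPM in amiRNA-VQ1,10. The ranges touched, with amiRNA-VQ1,10 replicate 2, which had the fewest counts of all libraries, at the bottom on 5 counts. The log2 fold change of TPS1, amiRNA-VQ1,10 over wild type, was -0.49 ± 0.34 (SE, n = 3 per genotype, edgeR adjusted p = 0.909), with a 95% interval of -1.20 to 0.22. Without amiRNA-VQ1,10 replicate 2 it was -0.31.

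TPS7, the most abundant member, gave the narrowest interval. It had 122, 141 and 125 CPM in wild type and 126, 114 and 133 CPM in amiRNA-VQ1,10, with overlapping ranges. Its log2 fold change was -0.05 ± 0.12 (SE, edgeR adjusted p = 0.985), with a 95% interval of -0.30 to 0.19. TPS5 stood at 74.9, 49.2 and 67.0 CPM in wild type and 53.7, 62.3 and 60.4 CPM in amiRNA-VQ1,10. The wild type libraries of TPS5 spread more widely than those of amiRNA-VQ1,10 and enclosed them. Its log2 fold change was -0.11 ± 0.16 (SE, edgeR adjusted p = 0.977; 95% interval -0.44 to 0.23). The signs of TPS5 and TPS7 turned when single libraries were left out.

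TPS6, linked to cell shape in leaves, had 16.5, 20.0 and 20.8 CPM in wild type and 15.1, 13.4 and 14.0 CPM in amiRNA-VQ1,10. All amiRNA-VQ1,10 libraries lay below all wild type libraries, as was so for 5.10% of all tested genes (10.4% had separate ranges in either direction). The difference did not pass, with a log2 fold change of -0.43 ± 0.26 (SE, edgeR adjusted p = 0.873; 95% interval -0.96 to 0.10). By exact permutation of the 6 library labels (two-sided) p was 0.1, and no smaller value is possible with 3 against 3.

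Among the members known to accumulate in carbon shortage, TPS11 had the smallest p of the family. It had 19.2, 33.1 and 19.9 CPM in wild type (24.1 ± 7.84, SD, n = 3) and 34.9, 43.4 and 42.0 CPM in amiRNA-VQ1,10 (40.1 ± 4.57). The groups did not overlap, but wild type replicate 2 lay next to amiRNA-VQ1,10 replicate 1 and apart from the other wild type libraries. The log2 fold change of TPS11 was 0.71 ± 0.22 (SE, edgeR unadjusted p = 0.00320, adjusted p = 0.394; 95% interval 0.26 to 1.16), higher in 3 of 3 libraries and not past the threshold. Leaving out wild type replicate 2 gave 1.03, with the lowest adjusted p of any alternative (0.0695). Leaving out wild type replicate 1 gave 0.56 (adjusted p = 0.940).

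TPS10 had 15.7, 16.9 and 13.6 CPM in wild type and 19.8, 20.0 and 26.3 CPM in amiRNA-VQ1,10. Its groups did not overlap either, and ranges were separate with amiRNA-VQ1,10 higher for 5.30% of all tested genes. The log2 fold change of TPS10 was 0.52 ± 0.25 (SE, edgeR unadjusted p = 0.0466, adjusted p = 0.814; 95% interval 0.01 to 1.03). It was 0.36 without amiRNA-VQ1,10 replicate 3, the highest library. For TPS10 and TPS11 alike the exact two-sided permutation test gave p = 0.1.

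TPS8 had 9, 16 and 3 counts in wild type (7.84, 12.3 and 2.72 CPM) and 11, 16 and 14 in amiRNA-VQ1,10 (10.4, 17.8 and 12.3 CPM). The groups overlapped, and the low wild type mean rested on replicate 3. The log2 fold change of TPS8 was 0.74 ± 0.39 (SE, edgeR adjusted p = 0.857; 95% interval -0.07 to 1.56). It moved to 0.37 when wild type replicate 3 was left out and to 1.30 when wild type replicate 2 was. TPS9, its closest relative in sequence, had 4, 1 and 3 counts in wild type and 1, 6 and 3 in amiRNA-VQ1,10. The ranges of TPS9 overlapped, and a difference was not detectable at this depth (log2 fold change 0.49 ± 0.73 in the fit with no filter, SE, adjusted p = 0.940, a value that depends on the prior count; exact permutation p = 0.7).

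**Figure D2:**
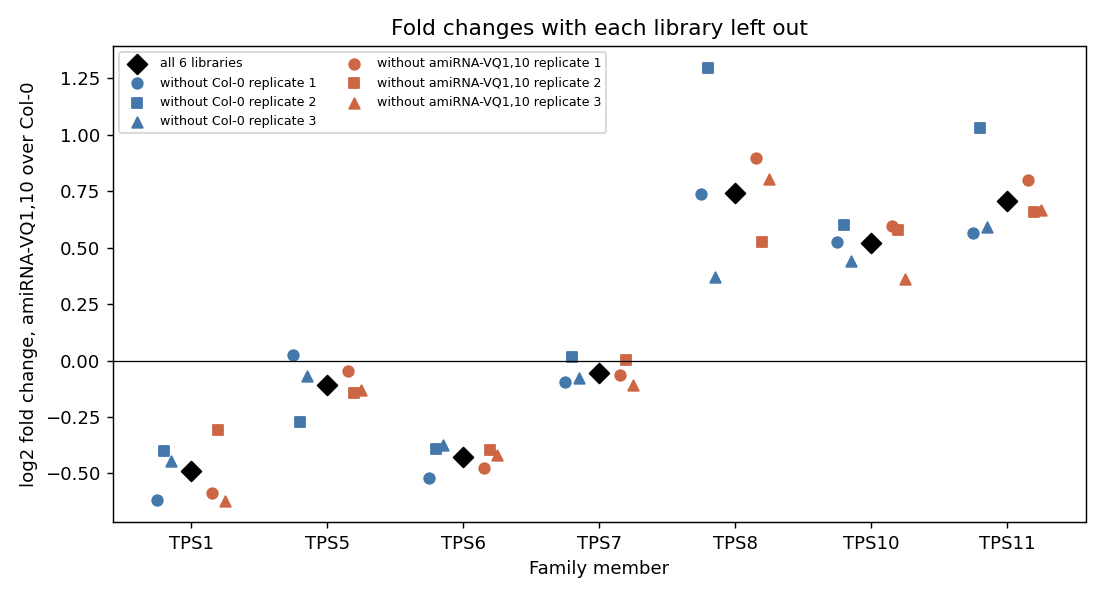
Log2 fold change of the 7 tested members with all 6 libraries (black diamonds) and with each Col-0 (blue) or amiRNA-VQ1,10 (orange) library left out. TPS8, TPS10 and TPS11 stay above 0 in all of these fits and TPS1 and TPS6 below, while TPS5 and TPS7 cross 0, and TPS8 spans 0.37 to 1.30.

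Set side by side, the summed level of the 8 genes was 269, 286 and 264 CPM in wild type and 271, 283 and 300 CPM in amiRNA-VQ1,10, with overlapping ranges. TPS8 to TPS11 together held 17.2%, 22.0% and 14.7% of the family's counts in the wild type libraries, with exact Clopper-Pearson 95% intervals of 13.1% to 21.8%, 17.9% to 26.6% and 10.9% to 19.3%. In amiRNA-VQ1,10 they held 24.4%, 31.1% and 27.7%, with intervals of 19.5% to 29.8%, 25.5% to 37.2% and 23.0% to 32.8%. The library values of the genotypes did not overlap, although the interval of wild type replicate 2 overlapped those of all 3 amiRNA-VQ1,10 libraries and the interval of wild type replicate 1 overlapped that of amiRNA-VQ1,10 replicate 1. The mean share was 18.0% ± 3.73 in wild type and 27.7% ± 3.36 in amiRNA-VQ1,10 (SD, n = 3), a difference of 9.76 percentage points. This division of the family was chosen with the members' values known, so the difference is a description and carries no test. TPS1 and TPS5 to TPS7 summed to 223, 223 and 225 CPM in wild type and 205, 195 and 217 CPM in amiRNA-VQ1,10.

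**Figure D3:**
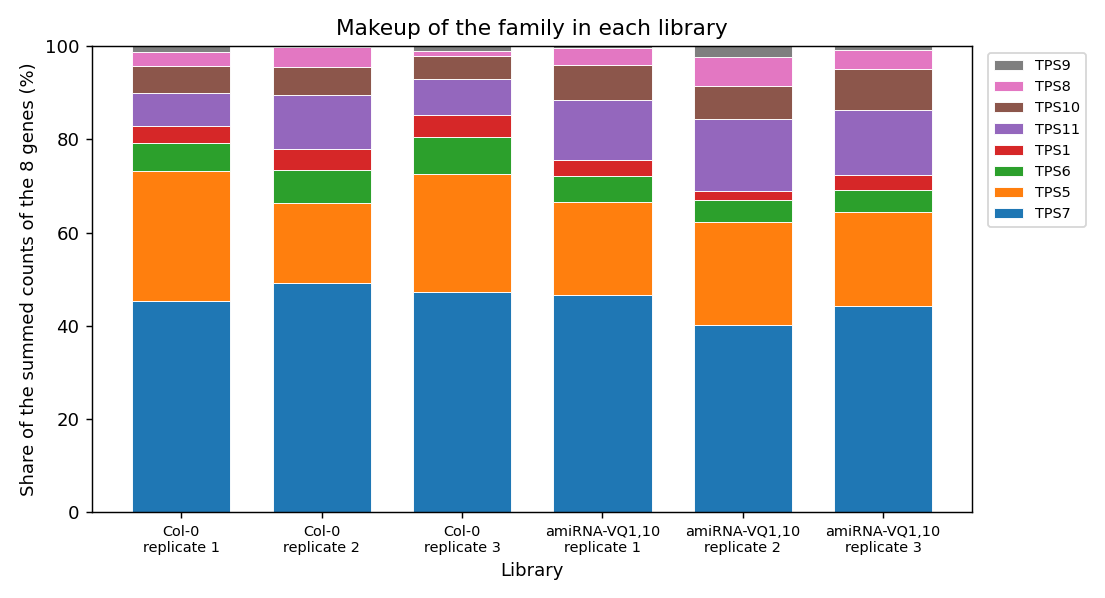
Share of each member in the summed counts of the 8 genes (percent, stacked bars from 0) for every library. TPS7 and TPS5 fill the lower part of each bar, and the upper part from TPS11 to TPS9 is 14.7% to 22.0% in Col-0 and 24.4% to 31.1% in amiRNA-VQ1,10.

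Of the marker lists, the phloem genes SUC2 and APL summed to 182, 189 and 149 CPM in wild type and 130, 143 and 140 CPM in amiRNA-VQ1,10, ranges that did not overlap. The leaf genes summed to 16600, 16730 and 16400 CPM in wild type and 18070, 17030 and 17610 CPM in amiRNA-VQ1,10, also without overlap. Root sums overlapped, at 1169, 1028 and 1124 CPM in wild type and 1233, 1496 and 1063 CPM in amiRNA-VQ1,10. Sums of the guard cell genes FAMA and KAT1 overlapped too (45.3, 63.9 and 48.0 against 62.2, 37.8 and 46.4 CPM). So did those of the flower genes AP1 and AP3. Of the single leaf, root, phloem and guard cell genes, only SUC2 and RBCS1A had separate ranges, beside 10.4% of all tested genes. None of the tested leaf, root, phloem or guard cell genes was called (0 of 11, beside 0.102% of all tested genes; 3 at an unadjusted p under 0.05, beside 6.02%), and SUC2 had a log2 fold change of -0.36 ± 0.12 (SE, edgeR adjusted p = 0.489). Fewer cells of a type and less RNA per cell cannot be told apart in these samples, and the part of tissue makeup in the members' values was not tested.

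The promoters of TPS10 and TPS11, the 2 members whose amiRNA-VQ1,10 libraries all lay above wild type, are given from 250 bases before the annotated gene start (RefSeq, TAIR10.1, gene's own strand). They lie at chr1:22181741-22181990 (- strand) and chr2:8108648-8108897 (+ strand). Capitals mark matches, on either strand, to the G-box CACGTG bound by bZIP and bHLH factors, to ACTCAT, bound by S1 bZIP factors, to TATCCA, a sugar response element of rice amylase genes, and to the evening element AAAATATCT of clock-controlled genes.
TPS10: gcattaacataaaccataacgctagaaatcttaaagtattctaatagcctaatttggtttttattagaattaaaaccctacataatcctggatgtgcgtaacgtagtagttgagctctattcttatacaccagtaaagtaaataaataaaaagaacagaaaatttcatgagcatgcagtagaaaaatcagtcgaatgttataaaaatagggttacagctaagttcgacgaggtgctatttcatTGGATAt
TPS11: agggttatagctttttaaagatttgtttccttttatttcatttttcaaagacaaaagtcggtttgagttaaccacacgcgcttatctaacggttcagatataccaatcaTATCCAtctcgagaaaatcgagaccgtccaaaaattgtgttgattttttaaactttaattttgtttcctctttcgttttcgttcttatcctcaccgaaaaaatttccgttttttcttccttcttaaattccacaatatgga
Of the 7 members whose promoters were searched, TATCCA stood in the windows of TPS10 and TPS11 (2 of 7), and in 13.6% of 27443 nuclear promoters of the same length. The match of TPS10 lay on the opposite strand, 7 to 2 bases before the start. That of TPS11 lay on the same strand, 141 to 136 bases before it. A link between these matches and transcript levels was not tested. ACTCAT stood in that of TPS5, against 12.3% of all promoters. The G-box (6.49% of all promoters) and the evening element (2.36%) stood in none of the 7.

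The genes whose levels followed TPS11 most closely over the 6 libraries were EMB2763 (AT2G17510), APP1 (AT4G36760), an aminopeptidase, and AT5G66860. Likeness was the root mean square difference of centred log2 CPM, which was 0.0891, 0.127 and 0.140, beside a median of 0.485 over 11972 genes. The named genes were picked as the nearest, so their place below the median was fixed in advance. Centred levels keep the difference between genotypes. EMB2763 had 6.97, 12.3 and 8.15 CPM in wild type and 12.3, 16.7 and 14.9 CPM in amiRNA-VQ1,10. Within the family TPS10 was nearest to TPS11 (0.258), then TPS8 (0.383), TPS7 (0.450), TPS5 (0.583), TPS6 (0.615) and TPS1 (0.680). TPS10 was followed most closely by ARASP (AT2G32480), AT4G12990 and AT2G19880, at 0.0791, 0.0855 and 0.0872 beside a median of 0.338. Within the family TPS11 was nearest to TPS10 (0.258), then TPS7 (0.282), TPS5 (0.383), TPS6 (0.470), TPS8 (0.507) and TPS1 (0.519). TPS8 was thus farther from TPS10 than TPS5, TPS6 and TPS7 were, and farther than the median gene.

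Around the synthases, 59 further genes of the pathway in 8 lists were examined, of which 41 were tested and 1 passed. Of all tested genes 0.102% passed, and 6.02% had an unadjusted p under 0.05 (edgeR). Trehalose-6-phosphate phosphatases remove the signal. Of 10 phosphatase genes 3 were tested and 0 passed (edgeR; 0 at an unadjusted p under 0.05), with a median log2 fold change of -0.0008. TPPA was at 0.27 ± 0.24 (SE). TPPG, which had too few counts for the filter and was singled out after its values were seen, had 8, 14 and 11 counts in wild type and 5, 2 and 6 in amiRNA-VQ1,10, with separate ranges. In the fit with no filter TPPG was at -1.13 ± 0.46 (SE, edgeR unadjusted p = 0.0130, adjusted p = 0.640). Together the 10 genes summed to 87.7 to 94.9 CPM in wild type and 80.1 to 93.7 CPM in amiRNA-VQ1,10. Trehalase, which splits trehalose, is encoded by TRE1, which stood at 2.61, 6.93 and 5.43 CPM in wild type and 3.77, 12.2 and 4.38 CPM in amiRNA-VQ1,10, too low for the test.

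SnRK1 is the kinase that trehalose-6-phosphate inhibits. Of 9 genes for its subunits and upstream kinases all were tested and 0 passed in edgeR, beside 0.102% of all tested genes. At an unadjusted p under 0.05 there were 0, beside 6.02% of all tested genes. The median was -0.11 and the range -0.39 to 0.16. The lowest p belonged to the beta subunit gene KINB2 (-0.21 ± 0.20, SE). SNF4, the betagamma subunit, was at -0.39 ± 0.36. Sucrose-phosphate synthases and phosphatases, which make sucrose, had 4 of 8 genes tested and 0 past the threshold (edgeR; 0 at an unadjusted p under 0.05; median 0.09). SPS4F and SPS1F were at 0.17 ± 0.14 and 0.20 ± 0.19. The 14-3-3 genes had 10 of 12 tested, 0 past the threshold (edgeR; 0 at an unadjusted p under 0.05) and log2 fold changes of -0.12 to 0.09.

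Of 6 tested genes known to be induced when sugar is short, 1 rose, AT3G15450, annotated with YGL and LRDR motifs, at a log2 fold change of 1.14 ± 0.16 (SE, edgeR adjusted p = 6.8e-04), where 0.0236% of all tested genes rose. At an unadjusted p under 0.05 there were 5 of 6 (6.02% of all tested genes), and the median was 0.83. Of these, SEN1 had 6, 15 and 8 counts in wild type and 14, 52 and 27 in amiRNA-VQ1,10. DIN4 had 6, 18 and 9 counts in wild type and 12, 17 and 19 in amiRNA-VQ1,10. Both passed the filter only through the amiRNA-VQ1,10 libraries, where they were higher. Neither the 5 of 6 nor the median is therefore read as support for a shift. SEN1, a gene induced in the dark, had the highest fold change of the list (1.88 ± 0.42, SE, edgeR adjusted p = 0.0999), and it lay between 1.18 and 2.26 with single libraries left out. DIN10, also known from dark treatment, was at 0.93 ± 0.26 (adjusted p = 0.323) and lay between 0.63 and 1.21. SEN1 and DIN10 were lowest when amiRNA-VQ1,10 replicate 2 was left out. This list was chosen with earlier results of these data known and is no independent evidence of direction. AT3G15450 had 40.1, 53.1 and 57.0 CPM in wild type and 93.4, 138 and 103 CPM in amiRNA-VQ1,10, with separate ranges. Like TPS1 it overlaps a gene on the opposite strand, as do other genes of the list, DIN4 and DIN10 among them. DIN2, the listed gene with too few counts for the filter, had 5, 8 and 8 counts in wild type and 5, 35 and 32 in amiRNA-VQ1,10. Its ranges overlapped, with amiRNA-VQ1,10 replicate 1 at the wild type level. In the fit with no filter DIN2 was at 1.95 ± 0.33 (SE, edgeR adjusted p = 2.3e-06). That p depends on the filter, since the fit with no filter called 92 genes where the main fit called 13. DESeq2, run on 22738 genes without this filter, called AT3G15450 and no other gene of the pathway lists. Summed over the 7 listed genes the level was 98.4, 148 and 163 CPM in wild type and 203, 398 and 254 CPM in amiRNA-VQ1,10. TPS8 to TPS11 summed to 46.2, 63.1 and 38.9 CPM and to 66.0, 87.9 and 83.2 CPM in the same libraries. Both sums were highest in amiRNA-VQ1,10 replicate 2, while the lowest wild type library was replicate 1 for the list and replicate 3 for TPS8 to TPS11.

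Of 9 genes of the C and S1 bZIP factors, which act with SnRK1 in low sugar, 0 passed in edgeR, beside 0.102% of all tested genes. At an unadjusted p under 0.05 there was 1, beside 6.02% of all tested genes. The median was -0.10. BZIP1, itself known to be induced by sugar shortage, had 20.0, 23.9 and 24.4 CPM in wild type and 24.5, 39.0 and 42.9 CPM in amiRNA-VQ1,10. Its groups were separate by a narrow margin, at a log2 fold change of 0.63 ± 0.22 (SE, edgeR adjusted p = 0.543), and it was at 0.45 without amiRNA-VQ1,10 replicate 3. BZIP25 had 45.3, 44.6 and 51.6 CPM in wild type and 37.7, 37.8 and 39.4 CPM in amiRNA-VQ1,10, separate in the lower direction, at -0.29 ± 0.17 (SE, adjusted p = 0.858). Over all tested genes 5.30% had separate ranges with amiRNA-VQ1,10 higher and 5.10% with it lower. BZIP2 was at -0.14 ± 0.09.

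**Figure D4:**
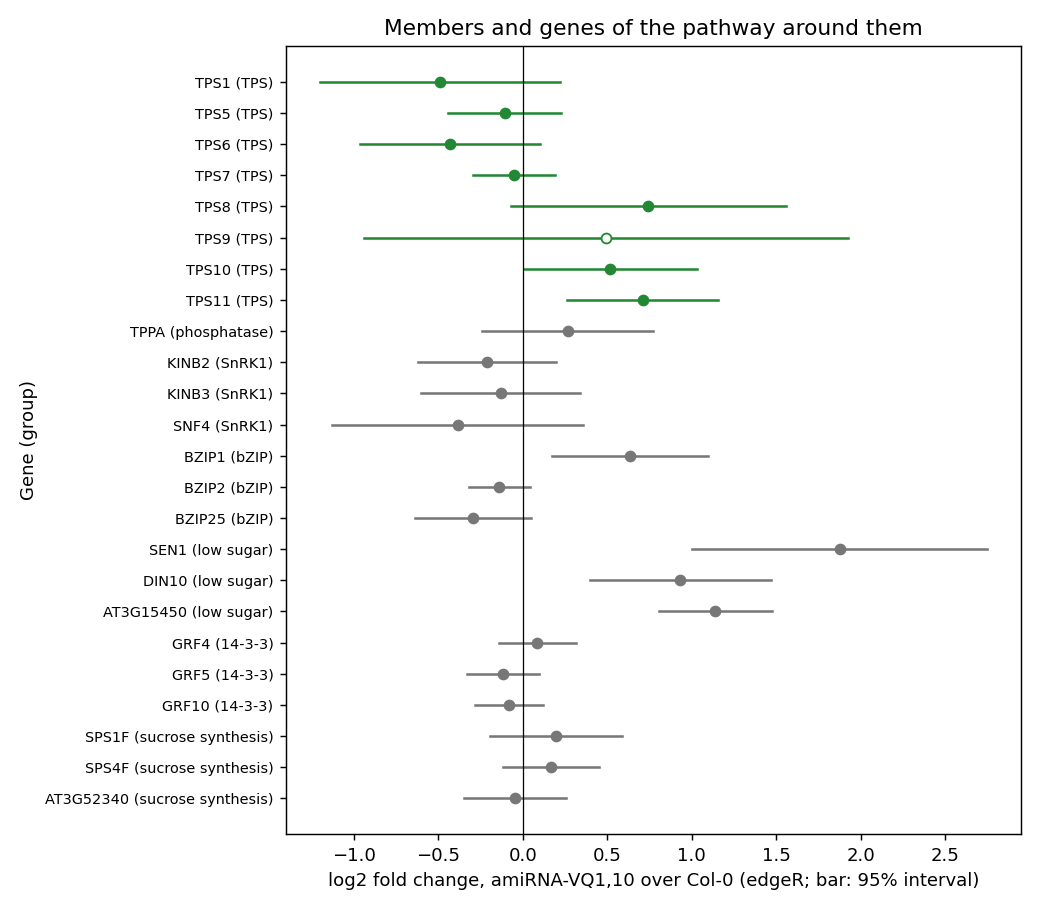
Log2 fold change with its 95% interval for the 8 members (green, TPS9 open because it comes from the fit with no filter) and for the named genes of the pathway around them (grey). Intervals of TPS1, TPS5, TPS6, TPS7, TPS8 and TPS9 include 0, those of TPS10 and TPS11 lie above it, and AT3G15450 at 1.14 is the gene that passed the adjusted threshold.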

How the data were processed

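The authors deposited 1 table of unnormalized read counts for each library. The submitters' processing notes name the build TAIR10 and, without roles, the tools DESeq2, STAR and HISAT2 2.0.4. How reads were counted, whether strand was used and whether molecular identifiers were collapsed is not given in the sources used here. The exact intervals of shares and the floors (3 counts) therefore cover counting error only. Intervals of log2 fold changes come from the edgeR fit, which includes the spread between replicates. Entries that name no gene (reads outside genes 3.79% to 4.07%, in more than 1 gene 0.103% to 0.109%, aligned more than once 4.40% to 5.45%) stayed out of totals and tests.

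Genotypes were compared with edgeR 4.0.16 in R 4.3.3 (filterByExpr, minimum count 10, minimum total 15; TMM scaling; quasi-likelihood test) over 12701 genes, with Benjamini-Hochberg adjustment and a threshold of 0.05. Centred log2 CPM used a prior count of 2. The fit was tested on simulated data. DESeq2 1.42.0, limma-voom (limma 3.58.1) and other alternatives were run beside it. The design text calls the libraries independent biological replicates. Named are the members, in each list the 3 lowest p-values (1 where under 4 genes were tested), and the 3 genes of at least 10 CPM nearest to members with an unadjusted p under 0.05. SUC2, TRE1, APL, TPPG, DIN2 and DIN4 come from their lists, and SUC2, TPPG, DIN2 and DIN4 were singled out after their values were seen. The members and lists were chosen with earlier results of these data known. Sequences, overlaps and gene structures were read from RefSeq's TAIR10.1 genome with its own annotation; the files hold gene identifiers and no coordinates. The promoter of TPS6 is not reported here.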

Additional observations from a re-analysis of the deposited data

How the results depend on the processing

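The count of members past the threshold was 0 in the main test and in all 14 alternatives (RLE scaling, library totals only, no filter, at least 50 counts in 3 libraries, limma-voom, DESeq2, a replicate block, no organelle genes, and each library left out). Of 94 values of single members under these alternatives 91 kept their direction. The others were TPS5, which ran from -0.27 to 0.026 with single libraries left out (0.026 without wild type replicate 1), and TPS7, which ran from -0.11 to 0.017 (0.017 with wild type replicate 2 left out, 0.0033 with amiRNA-VQ1,10 replicate 2 left out). The cause was not tested. The difference in the share of TPS8 to TPS11 was 9.72 points per kb of coding sequence and 8.07 to 11.8 with single libraries left out. Of the pathway genes 4 passed with no filter (AT3G15450, SEN1, DIN10 and DIN2) and 1 to 4 with single libraries left out, with 4 when amiRNA-VQ1,10 replicate 1 was out and 2 when wild type replicate 2 was. With the replicate number as a block 2 passed, AT3G15450 and SEN1, and TPS11 stood at 0.74 (edgeR adjusted p = 0.337). Same-numbered libraries are not stated to share a batch. Correlations of their deviations were -0.03, -0.02 and -0.01, beside -0.02 to 0.05 between unlike-numbered libraries. Whether a batch was shared cannot be told from these values. Over all genes 13 passed, 92 with no filter, 6 with a strict filter, 6 by DESeq2, 8 by limma-voom and 10 to 37 with single libraries left out (37 without wild type replicate 2 and 22 without amiRNA-VQ1,10 replicate 3). Depth limited TPS9, TPS8 and TPS1, with 1 to 17 counts per library.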
